A study of Mus musculus with 3 samples.

Results

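A20, the product of Tnfaip3, and the proteins that work beside it restrain signalling to the transcription factor NF-kB. The genes described here are Tnfaip3, the A20-binding protein genes Tnip1, Tnip2 and Tnip3, the adaptor gene Tax1bp1 and the deubiquitinase gene Cyld. They were chosen by name, with earlier results of these data known. A probe set was used if the annotation table gave it to exactly 1 of these genes. That rule found 12 of the 38533 probe sets analysed, for 5 of the 6 genes, out of 17886 genes in all. No probe set used here was assigned to Tnip3, whose expression was therefore not analysed here. Tnfaip3 and Tax1bp1 had 2 and 4 probe sets, Cyld had 4, and Tnip1 and Tnip2 had 1 each.

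The cells were wild-type mouse dendritic cells (DCs), grown from marrow for 5 days in the presence of the growth factor GM-CSF and sorted on surface PDL2, which binds the inhibitory receptor PD-1 on T cells. The 3 groups were PDL2-positive untreated cells, PDL2-negative cells given lipopolysaccharide (LPS, a bacterial ligand of Toll-like receptor 4) at 100 ng/ml, and PDL2-negative untreated cells. Each group had 1 array, so no spread between samples is known, no test was possible, and differences are described by size alone, with 2-fold (1 on the log2 scale) as the size that counts as called. The number of mice or cultures per array and the duration of LPS treatment are not given in the sources used here.

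Receptors for tumour necrosis factor, interleukin 1 and microbial products activate NF-kB through chains of ubiquitin built on adaptors and kinases, among them linear chains made by the ligase complex whose catalytic subunit is Rnf31. A20 carries a deubiquitinase domain of the OTU type and zinc fingers that bind ubiquitin, and it is itself a product of an NF-kB target gene, which makes it a feedback inhibitor. The ABIN proteins, encoded by the Tnip genes, bind both A20 and ubiquitin, TAX1BP1 links A20 to ubiquitinated targets and also serves as an autophagy receptor, and CYLD removes linear and other signalling chains. In mice, loss of A20 from DCs is known to give overactive DCs and inflammatory disease.

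In RefSeq's GRCm38.p6 annotation, Tnfaip3 lies at chr10:19000910-19015410, Tnip1 at chr11:54910787-54962956, Tnip2 at chr5:34496096-34513979, Tnip3 at chr6:65590398-65634040, Tax1bp1 at chr6:52713692-52766780 and Cyld at chr8:88696878-88751946. The deposited values were taken to be log2 signals from their range, and they were quantile-normalized before comparison. The arrays resembled each other before that step, with medians of 5.59, 5.56 and 5.59 on the PDL2-positive, LPS and PDL2-negative untreated arrays. A floor was set at the median of all normalized values, 5.58, and lower values were raised to it before a difference was taken. DC markers were present on every array, 9 of 9 being above the floor on each. Their median was 10.72 in PDL2-positive, 9.36 in LPS-treated and 8.46 in untreated PDL2-negative cells. In the untreated PDL2-negative cells, H2-Ab1 (14.29) and H2-Eb1 (14.17) read far above Flt3 (7.51) and Zbtb46 (7.08). Macrophage markers were also present, 9 of 9 above the floor on both PDL2-negative arrays, at 9.43 to 13.21 with LPS and 9.31 to 13.65 without it, whereas on the PDL2-positive array the 9 genes read 5.51 to 9.37 and 8 were above the floor, Mrc1 being below it. The log2 of their summed linear signal was 11.05 in PDL2-positive cells, 15.33 in LPS-treated and 15.78 in untreated PDL2-negative cells. The macrophage medians in the same order were 7.46, 11.83 and 12.52, above the DC median on both PDL2-negative arrays. Signals of different genes are not on a common scale, so these levels do not give the share of either cell type. All 5 monocyte markers were above the floor on each array. Of 8 neutrophil and granulocyte precursor markers, 8 were above the floor on both untreated arrays and 7 with LPS. The log2 of their summed signal was 14.16 in PDL2-positive, 12.93 in LPS-treated and 14.16 in untreated PDL2-negative cells. Of 5 lymphocyte and NK cell markers, 1 (Cd3e) was above the floor on each array. In such bulk samples, fewer cells of a type and less RNA per cell cannot be told apart.

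Tnfaip3 was the most LPS-responsive of the members. Its brighter probe set, 1433699_at, had a log2 signal of 10.93 in PDL2-positive cells, 13.86 in LPS-treated PDL2-negative cells and 9.59 in PDL2-negative untreated cells. The second, 1450829_at, read 9.22, 12.63 and 8.25 in the same order. Both probe sets thus gave the same order, with the LPS array highest by a wide margin and the PDL2-negative untreated array lowest. The LPS signal of the brighter probe set was close to the highest normalized value on the arrays, 14.75.

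**Figure D1:**
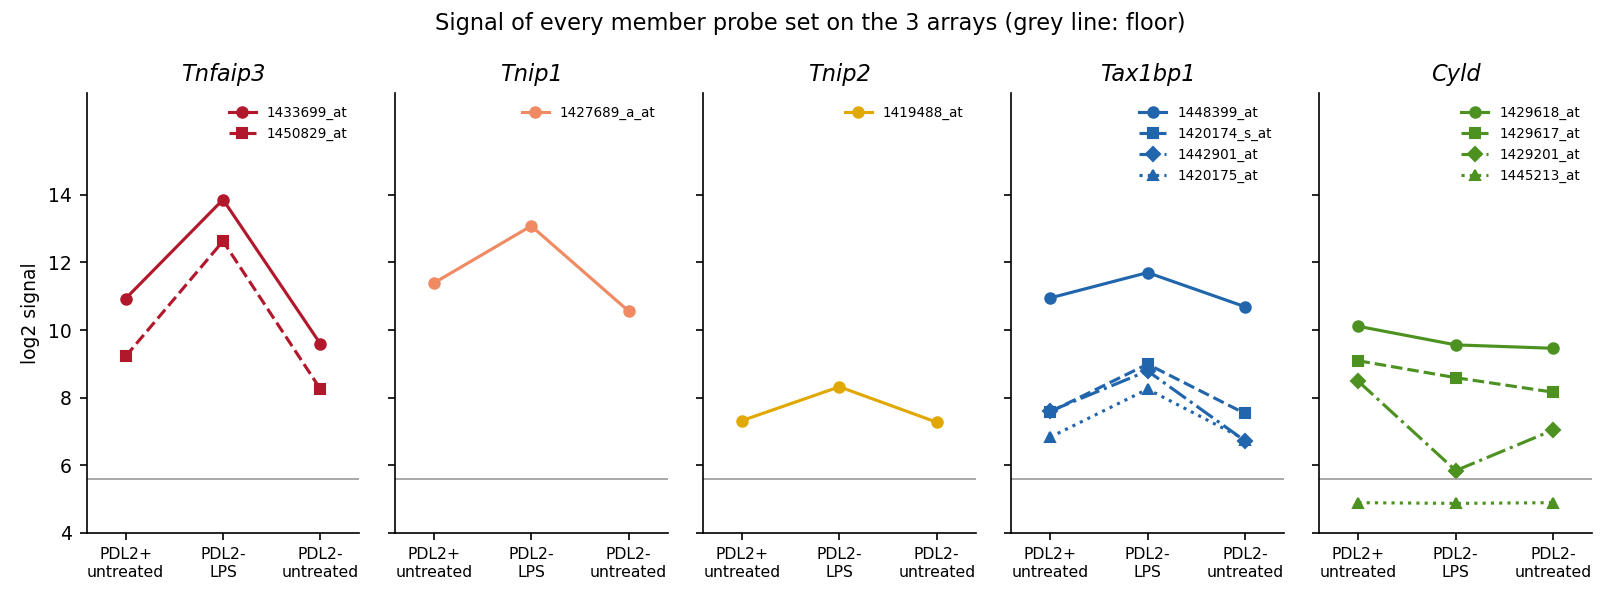
Log2 signal (y axis, quantile-normalized) of each of the 12 member probe sets on the 3 arrays, with PDL2-positive untreated cells at the left, LPS-treated PDL2-negative cells in the middle and PDL2-negative untreated cells at the right. Each point is 1 array, lines join the points of 1 probe set, and the grey line is the floor of 5.58; both Tnfaip3 probe sets peak on the LPS array (13.86 and 12.63), while the Cyld probe set 1429201_at is lowest there (5.84).

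The level of Tnip1, whose product ABIN-1 binds A20 and ubiquitin chains, was 11.39 in PDL2-positive cells, 13.08 with LPS and 10.56 in PDL2-negative untreated cells on its only probe set, 1427689_a_at. The order of the arrays was that of Tnfaip3. Tnip2 encodes ABIN-2, which also holds the kinase TPL2 in a stable complex, and it read 7.32, 8.32 and 7.27 in the same order on 1419488_at. The 2 untreated groups were 0.05 apart for Tnip2, so only the LPS array stood away from the others.

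Tax1bp1 was highest on the LPS array by all 4 of its probe sets. The brightest, 1448399_at, read 10.95 in PDL2-positive cells, 11.70 with LPS and 10.69 in PDL2-negative untreated cells. The other 3 read 6.83 to 7.60 in PDL2-positive cells, 8.25 to 8.99 with LPS and 6.72 to 7.53 in PDL2-negative untreated cells. For 1420174_s_at and 1420175_at, which the annotation ties to the same source sequence, the untreated groups were 0.05 and 0.07 apart, whereas on 1442901_at the PDL2-positive array stood 0.88 above the PDL2-negative untreated one.

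Cyld had its highest value on the PDL2-positive array by all 3 probe sets above the floor, unlike the other members. The brightest, 1429618_at, read 10.11 in PDL2-positive cells, 9.56 with LPS and 9.46 in PDL2-negative untreated cells, and 1429617_at, from the same source sequence, read 9.09, 8.59 and 8.16. On 1429201_at, from another source sequence, the values were 8.48, 5.84 and 7.04, so that the LPS array was lowest and close to the floor. The fourth, 1445213_at, was below the floor, with a single deposited value of 4.88 on all 3 arrays. It was used in no comparison except the alternative that averaged all probe sets of a gene.

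The first comparison asks how PDL2-negative DCs responded to LPS. Of the 5 members measured, 4 were called higher and 0 lower, where 9.17% of 11000 genes were called higher and 13.8% lower. Tnfaip3 was 19.2-fold higher (4.27 on the log2 scale) and ranked 83 from the highest of all genes tested. Tnip1 was 5.70-fold higher (2.51) and ranked 292. Tnip2 and Tax1bp1 lay just past the 2-fold size, at 1.06 and 1.01, and ranked 954 and 997. Cyld differed by 0.10. The median over the 5 members was 1.06, against 0.02 over all genes tested.

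Counted by probe set, 8 of 11 above the floor were called higher and 1 lower, where 10.4% of all named probe sets were called higher and 12.5% lower. Both Tnfaip3 probe sets were past 4 on the log2 scale, at 4.27 and 4.38. Those of Tax1bp1 ran from 1.01 for the brightest to 2.07 for 1442901_at. Those of Cyld disagreed in direction, at 0.43 and 0.10 for the pair from 1 source sequence and -1.21 for 1429201_at, the only member probe set called lower. As a yardstick of measurement, the differences given by a gene's 2 brightest probe sets were set against each other in 4212 genes, which gave a robust SD of 0.41. The 2 brightest Cyld probe sets lie closer together than that, and only 1429201_at, whose LPS signal was near the floor, lies farther from them. That SD says nothing of variation between cultures or mice.

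With the deposited values left as they were, the Tnip2 difference was 0.85 and with median centring 0.87, so its call ends under either, while Tax1bp1 stood at 1.05 and 1.08. The scaling moved the median of all genes from 0.02 with quantile normalization to -0.09 with the deposited values. Of the marker lists, 6 of 8 neutrophil and granulocyte precursor markers, 3 of 5 monocyte markers and 3 of 9 macrophage markers were called lower after LPS, and 1 macrophage marker (Fcgr1) and 1 of 9 DC markers (Ccr7) higher. Over all genes tested, 13.8% were called lower and 9.17% higher. The log2 of the summed signal was 12.93 with LPS and 14.16 without it for the neutrophil list, and 12.33 with LPS and 13.06 without it for the monocyte list. The part of these markers in the members' differences was not tested.

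**Figure D2:**
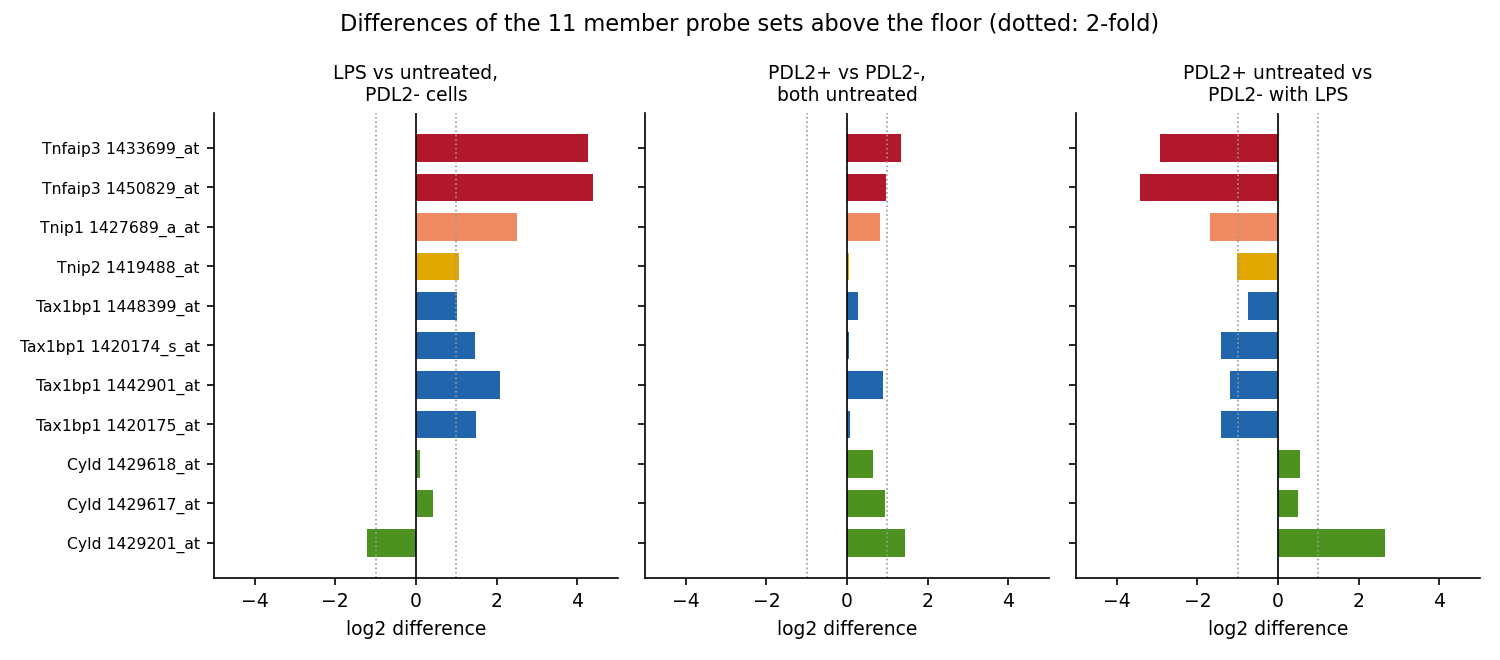
Log2 difference (x axis) of the 11 member probe sets above the floor, 1 bar each, in the 3 comparisons; positive bars are higher in the group named first above each panel, and dotted lines mark 2-fold. After LPS 8 bars pass 2-fold upward and the Cyld probe set 1429201_at passes it downward (-1.21), while in PDL2-positive against PDL2-negative untreated cells no bar points left.

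The second comparison asks how PDL2-positive DCs differed from PDL2-negative DCs when neither had been given LPS. Of 5 members, 1 was called higher and 0 lower, where 10.1% of 10926 genes were called higher and 13% lower. The called member was Tnfaip3, 2.53-fold higher in PDL2-positive cells (1.34), which ranked 744 from the highest. Its other probe set gave 0.97, just short of 2-fold. Tnip1 differed by 0.83, Cyld by 0.65, Tax1bp1 by 0.26 and Tnip2 by 0.05, with a median over the 5 members of 0.65 against 0.01 over all genes tested. By probe set, 2 of 11 were called higher and 0 lower, where the shares over all named probe sets were 10.9% and 11.6%. The second called probe set was 1429201_at of Cyld, at 1.43, while the other Cyld probe sets gave 0.65 and 0.93. The robust SD between a gene's 2 brightest probe sets was 0.29 here, over 4243 genes, which is 0.21 for the difference of 1 probe set. That SD holds no variation between cultures or mice and sets no limit between real and chance differences. The other Tax1bp1 probe sets gave 0.05, 0.88 and 0.07. Macrophage markers were lower in PDL2-positive cells by more than 2-fold for 9 of 9 genes, with a median of -5.06, and monocyte markers for 5 of 5, with a median of -3.35; 5 of 9 DC markers were called higher and 1 (Itgax) lower. The part of these marker differences in the members' values was not tested.

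The third comparison sets PDL2-positive untreated cells against LPS-treated PDL2-negative cells. It shares an array with each of the other comparisons and so is no independent evidence. The other comparisons also share an array, that of PDL2-negative untreated cells, and are not independent of each other. Of 5 members, 0 were called higher and 3 lower in PDL2-positive cells, where 15.6% of 11042 genes were called higher and 12.6% lower. Tnfaip3 was 7.60-fold lower, with a log2 difference of -2.93, and ranked 385 from the lowest. Tnip1 was 3.21-fold lower (-1.68). Tnip2 was 2.01-fold lower (-1.01), a call that ended with the deposited values (-0.83) and with median centring (-0.86). Tax1bp1 differed by -0.75 on its brightest probe set and by -1.19 to -1.42 on the other 3. Cyld was the only member with a positive difference, 0.54. By probe set, 1 of 11 was called higher and 7 lower, where the shares over all named probe sets were 15.5% and 12.6%. The higher one was again 1429201_at of Cyld, 6.24-fold higher in PDL2-positive cells (8.48) than with LPS (5.84). In this comparison the robust SD between a gene's brightest pair of probe sets was 0.44, over 4121 genes. Macrophage markers were called lower in PDL2-positive cells for 9 of 9 genes (median -4.24) and monocyte markers for 3 of 5, while 5 of 9 DC markers and 5 of 8 neutrophil markers (median 1.13) were called higher. Their part in the members' values was not tested here either.

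**Figure D3:**
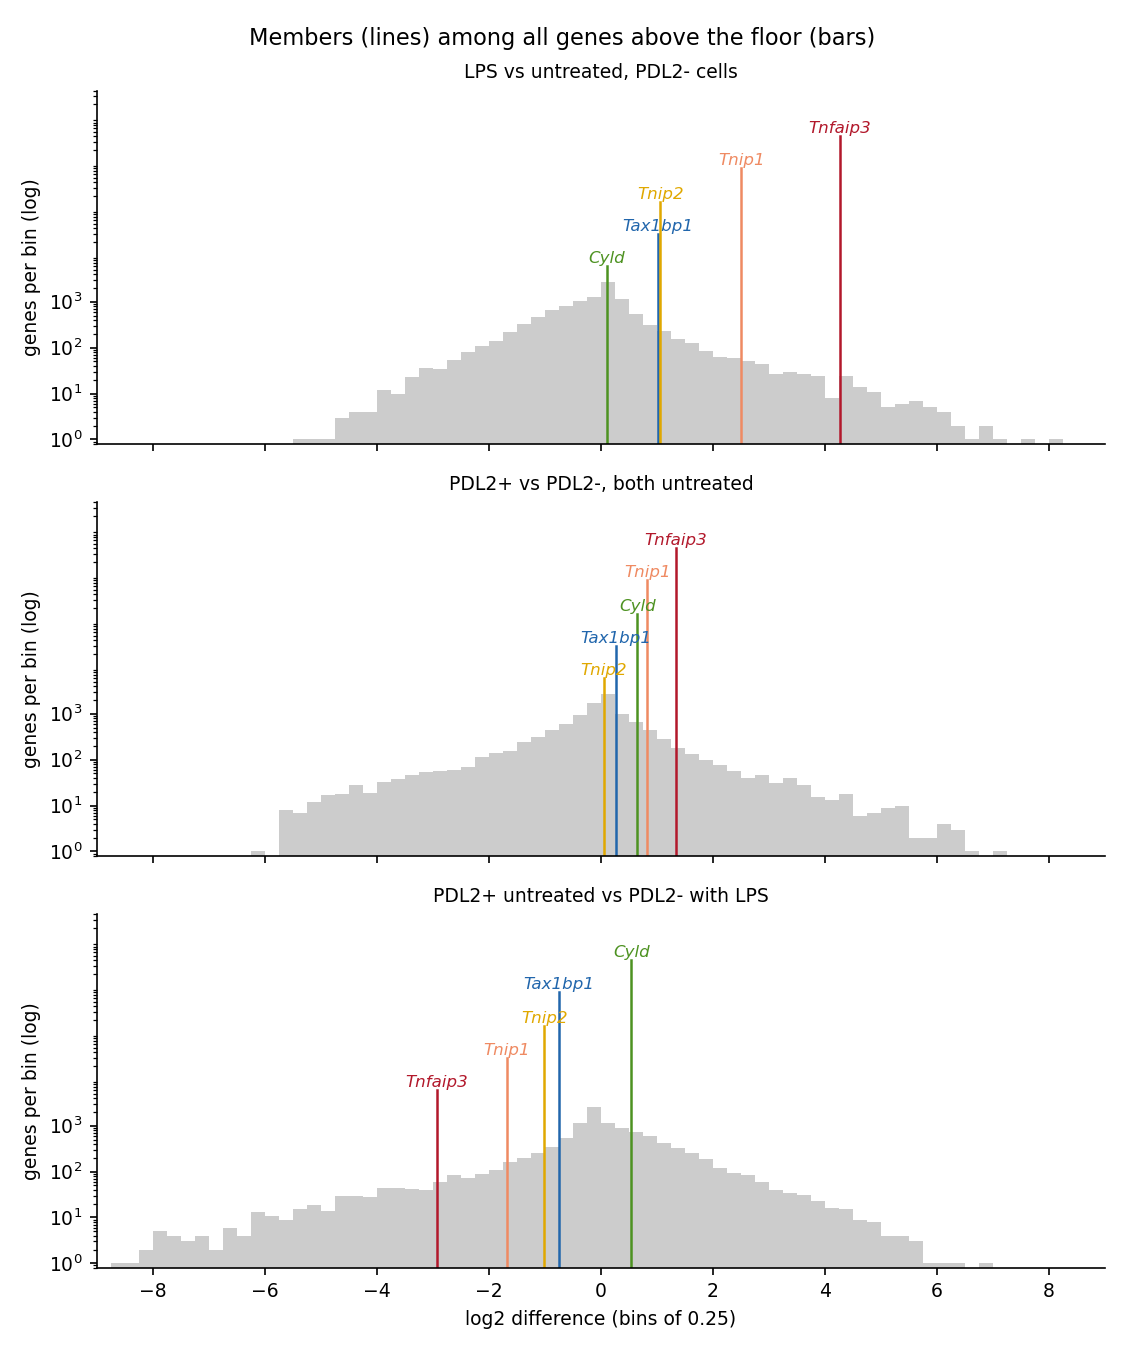
Distribution of log2 differences (x axis, bins of 0.25) over all genes tested (grey bars, number of genes on a log axis), with each member's brightest probe set as a coloured line whose height carries no value. Tnfaip3 lies far out at 4.27 after LPS and at -2.93 in PDL2-positive against LPS-treated cells, but at 1.34 in PDL2-positive against PDL2-negative untreated cells.

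The promoters of the member genes were searched for the kappaB consensus, the sequence pattern to which NF-kB dimers bind, because A20 is a known product of an NF-kB target gene. The windows ran from 250 bases before to 50 bases after each annotated start, on both strands, and sequences are RefSeq's for GRCm38.p6. All 6 genes were in the table, with 8 windows, since Tnfaip3 and Tax1bp1 have 2 starts each. A match was found in 5 of the 8 windows and in 5 of the 6 genes, where 8.46% of 32851 windows and 9.55% of 27025 genes held one. In Tnfaip3 the first window held 2 matches, at -125 to -116 and at -12 to -3 relative to the start, and the second window held none. In Tnip1 there were 3 overlapping matches between -58 and -47, which form 1 stretch. Cyld had 1 match at -155 to -146, Tnip3 had 1 at -54 to -45, Tax1bp1 had 1 at 35 to 44 of its second window, and Tnip2 had none. A match is a description of the letters, and binding was not measured here. Bases before the start are shown for Tnfaip3 and Tnip1, the members with the largest LPS differences, and for Cyld, which holds a match and differed by 0.10 on its brightest probe set; each is written 5′ to 3′ on the gene's strand with the matches in capitals. Each stretch opens at the far end of the window and stops at the gene's outermost annotated base, which for Cyld lies 150 bases and for Tnip1 16 bases before the start used for the window, or at the end of a match that crosses it, as the Cyld match does by 5 bases.
Tnfaip3, chr10:19015411-19015660, minus strand: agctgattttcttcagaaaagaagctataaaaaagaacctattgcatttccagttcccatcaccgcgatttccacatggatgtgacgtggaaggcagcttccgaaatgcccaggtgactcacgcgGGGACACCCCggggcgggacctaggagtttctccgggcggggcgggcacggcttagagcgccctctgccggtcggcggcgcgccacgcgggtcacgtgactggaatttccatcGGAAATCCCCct
Tnip1, chr11:54962957-54963190, minus strand: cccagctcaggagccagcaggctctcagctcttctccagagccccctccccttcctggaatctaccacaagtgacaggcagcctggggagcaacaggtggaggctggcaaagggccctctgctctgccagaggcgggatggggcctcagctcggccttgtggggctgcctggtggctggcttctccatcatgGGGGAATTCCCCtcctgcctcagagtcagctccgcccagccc
Cyld, chr8:88696778-88696882, plus strand: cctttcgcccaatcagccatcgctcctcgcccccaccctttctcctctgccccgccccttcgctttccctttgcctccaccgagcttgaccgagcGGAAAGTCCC

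**Figure D4:**
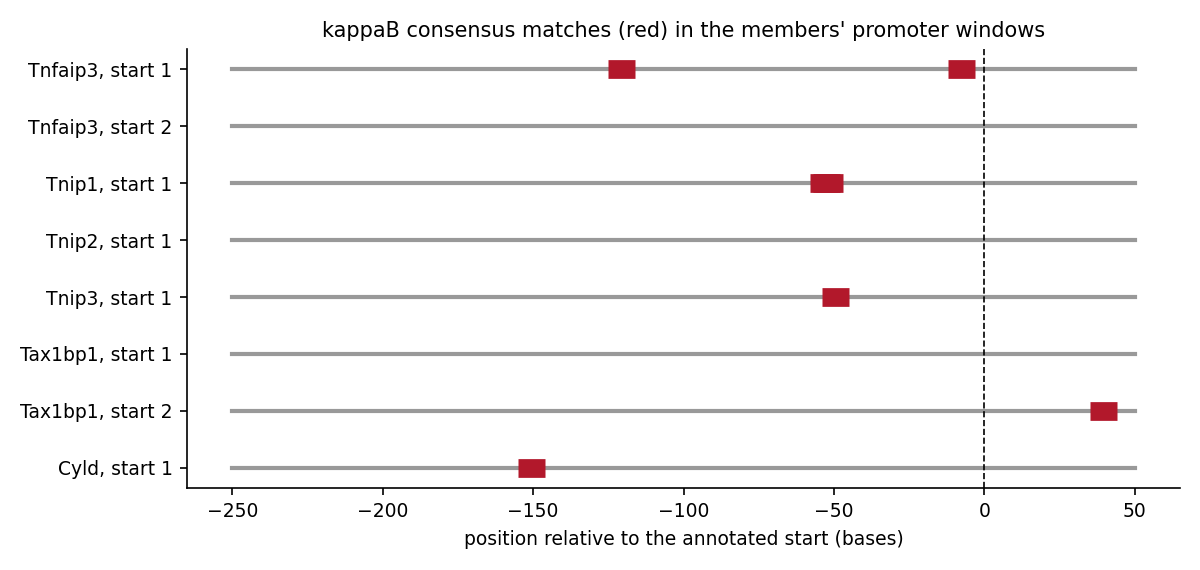
Position of kappaB consensus matches (red) in the promoter windows of the 6 member genes (grey lines, from 250 bases before to 50 bases after the annotated start, x axis in bases, 1 row per start). The match nearest to a start is that of Tnfaip3 at -12 to -3, and Tnip2 and 1 start each of Tnfaip3 and Tax1bp1 have none.

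Around the members, the genes of the same ubiquitin pathway were followed in 6 lists, drawn up with earlier results of these data known. Their counts are descriptions, to be read beside the shares of all genes tested. After LPS 9.17% of all genes were called higher and 13.8% lower. In PDL2-positive against PDL2-negative untreated cells the shares were 10.1% and 13%, and against LPS-treated cells 15.6% and 12.6%. In the complex that makes linear ubiquitin chains and the deubiquitinases attached to it, 1 of 5 genes was called higher and 0 lower after LPS. That gene was Rnf31, the catalytic subunit, with 10.02 after LPS against 7.98 without it (4.10-fold higher). Otulin, which cleaves linear chains, differed by 0.01, and Spata2, which ties CYLD to the complex, by -0.25. In PDL2-positive against PDL2-negative untreated cells 0 of 5 were called, with Spata2 at 0.74, Rnf31 at 0.55 and Otulin at 0.54. Against LPS-treated cells Rnf31 was 2.81-fold lower in PDL2-positive cells and Spata2 differed by 0.99. Counts of 0 or 1 in a list of 5 genes lie near the shares over all genes.

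Over all genes tested, 9.17% were called higher and 13.8% lower after LPS. Of 16 genes for A20's partner ligases and for the ubiquitin-dependent activation of kinases, 6 were called higher and 0 lower, with a median of 0.48. They were led by the adaptor gene Traf2 (5.39-fold), Ikbkg, the ubiquitin-binding subunit of the IkB kinase (5.04-fold), and the ligase gene Birc2 (3.74-fold). Rnf11, whose product works with A20, was 2.08-fold higher, and Itch, its partner ligase, differed by -0.27. The 6 probe sets of Ikbkg ran from 0.68 to 2.70. In PDL2-positive against PDL2-negative untreated cells 4 of 16 were called higher and 0 lower, with a median of 0.71. The shares over all genes were 10.1% and 13%. Here Birc2 led with 12.05 against 8.18 (14.6-fold higher), followed by the ligase gene Traf6 (4.20-fold, with probe sets from 0.78 to 2.07) and Birc3 (3.10-fold), while Itch differed by 0.91 and Ikbkg by 0.51. Against LPS-treated cells 4 of 16 were called higher in PDL2-positive cells, among them Birc2 (3.92-fold), Traf6 (3.83-fold) and Itch (2.27-fold), and 3 lower, Ikbkg (3.54-fold), Traf2 (2.60-fold) and Traf5 (2.11-fold). Some probe sets of Traf6, Itch and Ikbkg stayed short of 2-fold there, at 0.78, 0.49 and -0.53. The shares over all genes there were 15.6% higher and 12.6% lower.

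Of 11 other deubiquitinase genes of A20's OTU family above the floor, 3 were called higher and 0 lower after LPS, namely Vcpip1 (2.67-fold), Otud7b (2.37-fold) and Otud5 (2.27-fold). Each had another probe set short of 2-fold, the lowest at 0.82, 0.89 and 0.52. The shares over all genes were 9.17% higher and 13.8% lower. In PDL2-positive against PDL2-negative untreated cells 4 of 11 were called higher and 0 lower, beside 10.1% and 13% of all genes. Otud7b, which removes ubiquitin from the adaptor TRAF3, had 8.63 in PDL2-positive against 6.32 in PDL2-negative untreated cells (4.96-fold higher), and Zranb1 was 2.77-fold higher. Otud5 was 2.20-fold (lowest probe set 0.39) and Otud1 at least 2.05-fold higher. Otud7b was above both PDL2-negative arrays, since it was also 2.09-fold higher in PDL2-positive than in LPS-treated cells, as was Zranb1 (3.18-fold). Vcpip1 was the 1 gene called lower there (2.77-fold, with probe sets from -1.47 to -0.77). With 2 of 11 called higher and 1 lower there, the counts were near the shares over all genes, 15.6% and 12.6%.

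TAX1BP1 belongs to the autophagy receptors, which were grouped with the adaptors of the kinase TBK1. Of 15 genes, 5 were called higher and 1 lower after LPS, with a median of -0.22, beside 9.17% and 13.8% of all genes. The higher genes were the TBK1 adaptor genes Azi2 (4.50-fold, with its other probe set at 0.22) and Tank (2.22-fold), the kinase genes Ikbke (4.44-fold) and Tbk1 (2.29-fold), and the receptor gene Sqstm1 (3.05-fold). The lower gene was Rb1cc1, which takes part in the start of autophagy (2.02-fold, with its other probe set at -0.12). In PDL2-positive against PDL2-negative untreated cells 1 of 15 was called higher and 2 lower, with a median of 0.15. These counts are near the shares over all genes, 10.1% higher and 13% lower. Calcoco1, a relative of Tax1bp1, was 2.01-fold higher, a call that ended with the deposited values and with median centring (0.98 under each). Ikbke was 5.40-fold and the TBK1 adaptor gene Tbkbp1 2.20-fold lower (its other probe set at -0.11), and Tbk1 differed by 0.02. Against LPS-treated cells 3 of 15 were called higher in PDL2-positive cells and 3 lower, with a median of 0.38, beside 15.6% and 12.6% of all genes. The higher genes were Gabarapl1, of the autophagosome protein family that such receptors bind (3.05-fold), Rb1cc1 (2.90-fold) and Calcoco1 (2.46-fold). The lower ones were Ikbke, with 6.42 in PDL2-positive cells against 11.00 with LPS (24.0-fold), Azi2 (6.85-fold) and Tbk1 (2.26-fold).

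Of 15 genes listed as other feedback inhibitors of NF-kB signalling, 12 were called higher and 1 lower after LPS, with a median of 2.19. Over all genes, 9.17% were called higher and 13.8% lower. The list was set by gene name, with earlier results of these data known. Whether each gene restrained NF-kB in these cells was not measured. Socs1, an inhibitor of cytokine receptor kinases, had 10.58 after LPS against 5.95, close to the floor, without it (24.7-fold higher). Nfkbiz, a nuclear IkB protein gene, was 20.6-fold higher (probe sets from 1.02 to 4.36) and Socs3 11.3-fold higher. A place in the list does not show that Socs1, Socs3 or Nfkbiz restrains NF-kB. The list's counts and median are therefore not those of NF-kB brakes alone. Tnfaip8l2, whose product restrains Toll-like receptor signalling, was 3.11-fold lower. In PDL2-positive against PDL2-negative untreated cells 4 were called higher and 3 lower, with a median of -0.06, beside 10.1% and 13% of all genes. The higher genes included Sigirr, an inhibitory receptor of the interleukin 1 receptor family (4.62-fold), and the IkB genes Nfkbib (4.42-fold) and Nfkbie (3.38-fold). The lower ones were Tnfaip8l2 (6.91-fold), Socs3 (3.95-fold) and Irak3, an inhibitory member of the IRAK family (2.96-fold). Against LPS-treated cells 9 of 15 were called lower in PDL2-positive cells and 1 higher, with a median of -1.28. The shares over all genes were 12.6% lower and 15.6% higher. Socs3 was 44.5-fold, Nfkbiz 36.4-fold (probe sets from -5.32 to -0.82) and Irak3 16.9-fold lower, and Sigirr was 3.99-fold higher.

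A20 and its partners also limit cell death, and 6 genes of death receptor signalling and necroptosis were followed. Among all genes tested, 9.17% were called higher and 13.8% lower after LPS. After LPS 3 of 6 were called higher and 0 lower, namely the nucleic acid sensor gene Zbp1 (10.3-fold), Cflar, an inhibitor of caspase 8 (8.42-fold, probe sets from 0.52 to 4.90), and Mlkl, the executor of necroptosis (7.80-fold). In PDL2-positive against PDL2-negative untreated cells Cflar was 2.98-fold higher (probe sets from 0.66 to 3.13), whereas Mlkl was at least 7.87-fold, the kinase gene Ripk3 5.07-fold and Zbp1 3.38-fold lower, the other probe set of Zbp1 being at -0.55. Against LPS-treated cells 5 of 6 were called lower in PDL2-positive cells and 0 higher, with Mlkl at least 61.4-fold, Zbp1 34.6-fold and Ripk3 3.83-fold lower. Mlkl was below the floor in PDL2-positive cells (5.10), against 11.52 with LPS. The shares over all genes in that comparison were 12.6% lower and 15.6% higher.

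**Figure D5:**
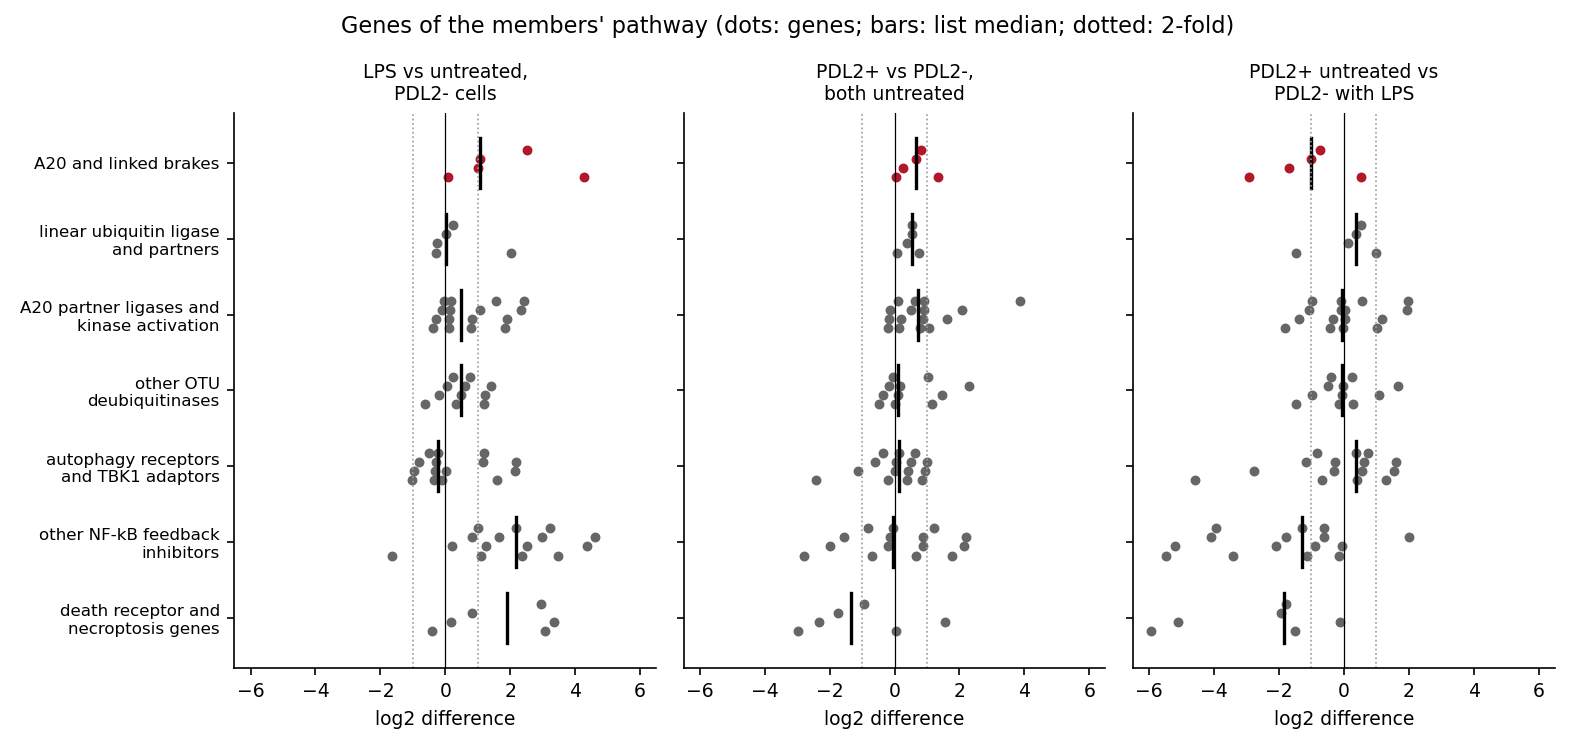
Log2 differences (x axis) of the members (red) and of 6 lists of pathway genes (grey), 1 dot per gene, with the list median as a black bar and 2-fold as dotted lines. After LPS the genes listed as feedback inhibitors have a median of 2.19 and the members one of 1.06, while in PDL2-positive against PDL2-negative untreated cells these medians are -0.06 and 0.65.

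For each member the genes with the most similar pattern were taken as those with the smallest Euclidean distance between signals centred on their mean over the 3 arrays, among 9850 genes above the floor on every array. With 3 arrays such likeness is a description only, and it is easily met by genes that differ little. Nearest to Tnfaip3 were the zinc transporter gene Slc39a14 at a distance of 0.134, the tyrosine kinase gene Src at 0.147 and the sialyltransferase gene St3gal1 at 0.257. Slc39a14 had 8.48 in PDL2-positive cells, 11.46 with LPS and 7.01 in PDL2-negative untreated cells. Nearest to Tnip1 were Gpr85, an orphan receptor gene (0.061), the monocarboxylate transporter gene Slc16a1 (0.084) and Trim34a (0.122). For Tnip2 they were Wdr43 (0.025), Utp23 and the survival gene Bcl2l2 (both 0.040), and for Tax1bp1 the calcium sensor gene Stim2 (0.016), Zfp821 (0.034) and Brwd3 (0.045). Tcta and Tmcc2 (both 0.011) and the centrosomal gene Cep57 (0.013) came nearest to Cyld.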

How the data were processed

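The deposited values, 1 per probe set and array, were taken to be log2 signals from their range. How the authors corrected, normalized and summarised them is not given in sources used here. From 38546 probe sets, 13 controls were left out, and the other 38533 were quantile-normalized over the 3 arrays. Of these, 7011 held the same deposited value on all 3 arrays, and why was not tested. Probe sets were named through the platform annotation, and symbols were updated through the Entrez number in RefSeq's GRCm38.p6 table, which held 33800 of the 33987 probe sets with 1 gene. The 449 probe sets with several genes and the 4110 unnamed ones were used for no gene. The brightest probe set on average stood for a gene. Genes below the floor on both arrays of a comparison were not tested, and a fold against a value at the floor is a lower bound. Arrays had no replicates, so no p-value is given, and their number limits the precision. The members and lists were chosen with earlier results of these data known. Named were all members, of each list the genes past 2-fold, starting with the 3 of largest size in each direction, up to 3 genes of the same complex whatever they did, and the 3 genes most like each member. The steps were tested on simulated data with known changes, all larger than 2-fold and in genes well above the floor. The simulated noise was smaller than the disagreement between probe sets seen here. That test therefore does not show how reliable calls near 2-fold are. Alternatives were other scalings, probe set rules, floors and fold sizes. Python 3.11.15, numpy 2.4.6, pandas 2.3.3 and matplotlib 3.10.9 were used.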

Additional observations from a re-analysis of the deposited data

How the results depend on the processing

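Over the 3 comparisons, the number of members called moved by more than 1.5 times under 5 of 24 alternatives. After LPS it was 4, and it was 2 of the 3 members with a second probe set when that probe set was used, and 2 at 3-fold. For PDL2-positive against PDL2-negative untreated cells it was 1, and it was 0 of 3 with the second probe set, 0 at 3-fold and 3 at 1.5-fold. For PDL2-positive against LPS-treated cells it stayed between 2 and 4. The share of all genes called was worked out for the main setting only. Counts under the alternatives, of members or of list genes, therefore cannot be set beside such a share. No called member changed sign under any alternative. Tnfaip3 ranged from 4.18 to 4.38 after LPS, from 0.97 to 1.34 between the untreated groups and from -3.41 to -2.89 between PDL2-positive and LPS-treated cells. In the same 3 comparisons Tnip1 ranged from 2.51 to 2.56, from 0.82 to 0.83 and from -1.74 to -1.68. Tnip2 is the weakest call: with the floor at the 75th percentile of all values (7.80) its differences were 0.52 after LPS and -0.52 in PDL2-positive against LPS-treated cells, by construction, since its untreated signals lie below that floor. Averaging all probe sets, for Cyld including the one below the floor, gave Cyld -0.17 after LPS and Tax1bp1 1.51. Of 144 list counts under alternatives, 33 moved by more than 1.5 times, mostly with another fold size or with the second probe set, which fewer genes have. With the second probe set, 7 of the genes listed as feedback inhibitors were called after LPS, against 13, and 0 of the OTU genes, against 3. With the floor at the 75th percentile, 1 OTU gene was called in PDL2-positive against PDL2-negative untreated cells, against 4. With the deposited values or with median centring, 2 genes of the linear ubiquitin list were called in PDL2-positive against LPS-treated cells, against 1. With the second probe set, the called autophagy genes numbered 3 after LPS, against 6, and the called death genes 1 between the untreated groups, against 4, and 2 between PDL2-positive and LPS-treated cells, against 5. Among the calls of list genes, those of Nfkbid after LPS (1.09) and of Traf2 (1.05) and Calcoco1 (1.01) between the untreated groups ended with the deposited values, by a small margin. No paired analysis was possible because each group had 1 array and the labels give no replicate numbers.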
